A study of Mus musculus with 8 samples.

Results

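The 9 genes described here encode receptors through which growth factors and cytokines act on myeloid cells: Csf1r, Csf2ra, Csf2rb, Il4ra, Il6ra, Il10ra, Tgfbr1, Tgfbr2 and Ifngr2. They were chosen by name, and each was read from the array row that the platform annotation assigned to that symbol and no other. All 9 had exactly 1 such row, among 22180 genes measured. The samples were 8 Affymetrix arrays, each with RNA from CD45+ CD11b+ Ly6Chi cells sorted by flow cytometry out of the tumour of 1 mouse. The irradiated group was 4 mice whose established tumours received 20 Gy, and the sham group was 4 mice given a sham treatment. Both groups were female C57BL/6 mice, labelled as 8 weeks old, with tumours grown under the skin for 14 days from PDAC cell line 152 and harvested 1 day after treatment. That line came from spontaneous tumours of KPC mice, which carry KrasLSL-G12D/+, Trp53LSL-R172H/+ and Pdx1-Cre, so both groups bore tumours of the same single line. These alleles belong to the implanted cells and not to the host mice that supplied the sorted cells, and an implant under the skin is not in the pancreas.

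The colony-stimulating factor receptors keep monocytes and macrophages alive and drive their maturation. The interleukin receptor chains signal through JAK kinases to STAT factors, with IL-4 acting mainly through STAT6, and IL-6 and IL-10 mainly through STAT3. Interferon gamma arms macrophages against microbes. TGF-beta receptors are serine/threonine kinases that phosphorylate SMAD proteins, and in tumours TGF-beta is known for restraining immune responses.

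Values are log2 levels, array medians were 4.68 to 4.73, and correlations between arrays over genes were 0.978 to 0.989. The sort's own markers were present: Ptprc, which encodes CD45, averaged 11.62 ± 0.09 in irradiated and 11.66 ± 0.05 in sham mice, Itgam (CD11b) 11.12 ± 0.12 and 10.94 ± 0.18, and Ly6c2 11.76 ± 0.71 and 11.55 ± 0.42 (SD, n = 4 each). Markers of other cells were uneven between arrays. The counts of lower markers given here stand beside 57.8% of all genes that were lower in irradiated mice. The mean of 12 measured T and NK cell markers lay between 5.39 and 6.98 on irradiated arrays and between 5.51 and 8.13 on sham arrays, highest in sham mice 2 and 3, and 11 of the 12 were lower on average in irradiated mice. The mean of 12 neutrophil markers lay between 6.30 and 7.78 on irradiated arrays and between 7.32 and 8.61 on sham arrays, and 10 of the 12 were lower in irradiated mice. Within that list the precursor granule genes Camp and Ngp were high only in sham mice 2 and 3. They stood at 8.02 and 7.78 in mouse 2 and at 10.10 and 10.08 in mouse 3. Ltf and Elane, other granule genes of the list, were high only in sham mouse 3, at 9.31 and 6.56. Cxcr2 and Mmp9, genes of mature neutrophils, were lower in sham mice 2 and 3 than in sham mice 1 and 4. Ly6g and S100a8 did not follow them, being highest of the sham arrays in mouse 3, at 5.22 and 12.21. All of these genes were chosen after their values were seen. The mean of 7 B and plasma cell markers lay between 4.71 and 5.79 on irradiated arrays and between 5.22 and 6.25 on sham arrays, with 5 of the 7 lower in irradiated mice. The mean of 9 dendritic cell markers lay between 6.50 and 6.68 on irradiated arrays and between 6.64 and 7.06 on sham arrays, with 6 of the 9 lower in irradiated mice. The widest difference in it, -1.01, was that of Ccr7, a lymph node homing receptor gene also chosen after its values were seen (limma unadjusted p = 0.00774, adjusted p = 0.819). The part of these markers in the receptor values was not tested beyond the fits given below for T and NK cell and macrophage maturation markers. Such a bulk measurement cannot tell fewer cells of a type from less RNA per cell.

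The comparison asked whether irradiation of the tumour was associated with a change in these receptor transcripts 1 day later. None of the 9 passed: 0 of 9 had an adjusted p under 0.05 in limma, where the share over all 22180 genes was also 0%, and their adjusted p lay between 0.832 and 0.993. At an unadjusted p under 0.05 the count was again 0 of 9, against 6.07% of all genes. The irradiated and sham mice overlapped for every one of the 9 genes, where 3.68% of all genes showed no overlap. The differences (irradiated minus sham, log2) ran from -0.20 for Csf2rb to 0.10 for Il6ra. Of the 9, 5 were lower in irradiated mice, beside 57.8% of all genes, and their median of -0.03 was that of all genes (-0.03).

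**Figure D1:**
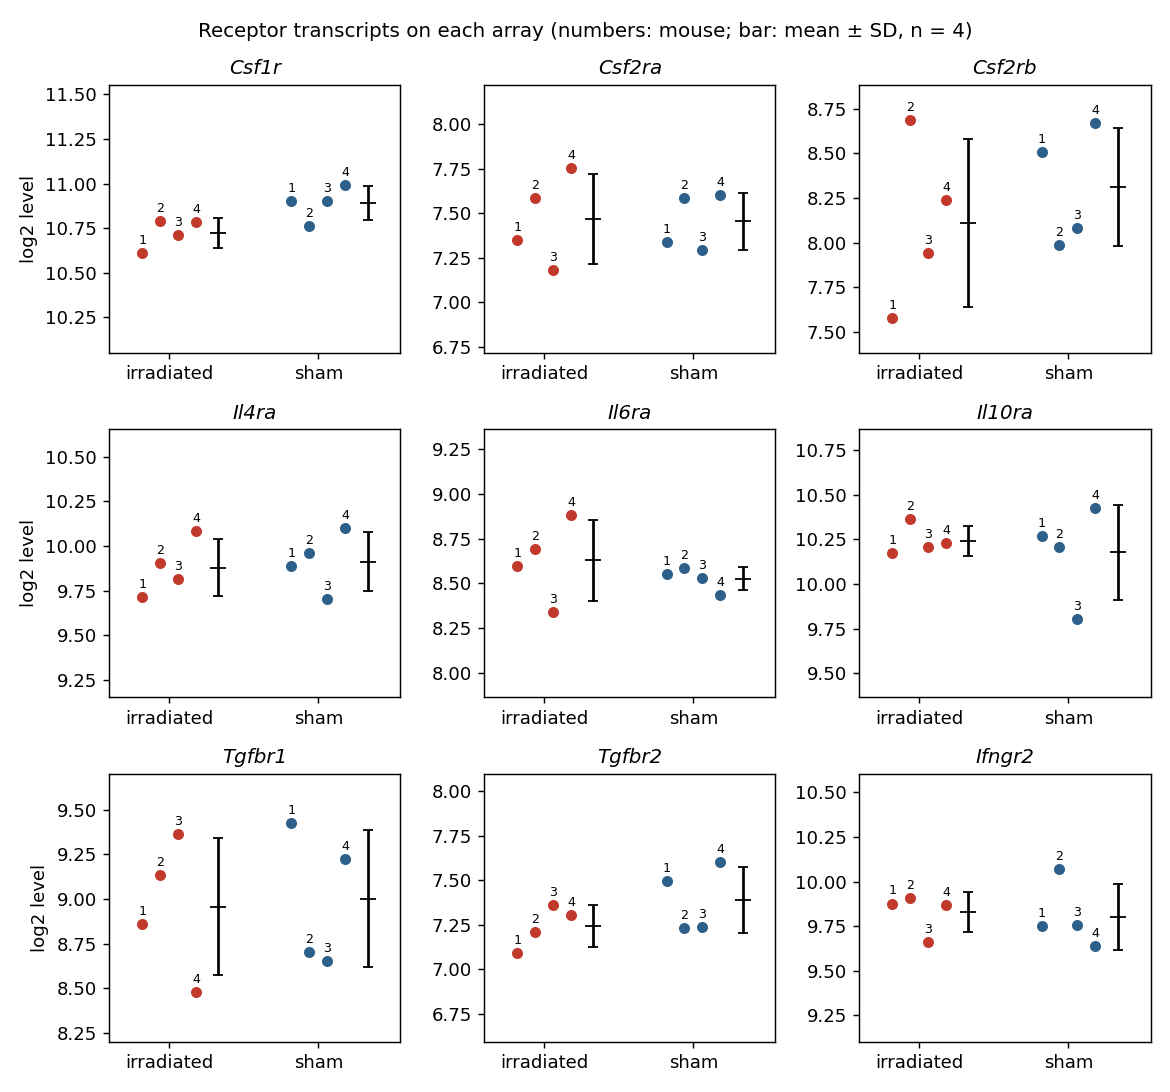
Log2 level of each receptor transcript on each array, irradiated mice left (red) and sham mice right (blue), with mouse numbers, and the mean ± SD of each group in black (n = 4). Every panel spans the same height of 1.5 log2 units around its own centre; the groups overlap in all 9 panels, and Csf2rb and Tgfbr1 spread most.

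Csf1r (probe set 17351053) encodes the receptor tyrosine kinase for CSF1 and IL-34, on which most macrophages depend for survival. It stood at 10.61, 10.79, 10.71 and 10.78 in irradiated mice 1 to 4, and at 10.90, 10.76, 10.90 and 10.99 in sham mice 1 to 4. The irradiated mice lay low and close together, and among the sham mice only mouse 2 fell within their range. The group means were 10.72 ± 0.08 in irradiated and 10.89 ± 0.09 in sham mice (SD, n = 4 each), which differed by -0.17 ± 0.10 (SE; 95% interval -0.38 to 0.05; limma adjusted p = 0.832). On the linear scale this was a ratio of 0.892. Csf1r was among the steadier transcripts: its range over the 8 arrays, 0.38, was wider than that of only 15.5% of the 12286 genes at or above the median level of the arrays.

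Csf2ra and Csf2rb encode the chains of the GM-CSF receptor. Csf2ra (probe set 17366170) binds GM-CSF specifically, and Csf2rb (probe set 17312716) is the signalling chain that the GM-CSF, IL-3 and IL-5 receptors share. The irradiated mice 1 to 4 had Csf2ra at 7.35, 7.58, 7.18 and 7.76, and the sham mice 1 to 4 at 7.34, 7.58, 7.29 and 7.60. The irradiated values bracketed the sham values on both sides, with a difference of 0.01 (95% interval -0.30 to 0.33; limma adjusted p = 0.993).

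Csf2rb varied most of the 9 receptors. Its levels were 7.58, 8.69, 7.94 and 8.24 in irradiated mice 1 to 4, and 8.51, 7.99, 8.08 and 8.67 in sham mice 1 to 4. Irradiated mouse 1 was the lowest array and irradiated mouse 2 the highest, so the irradiated group alone covered the whole range of 1.11, which was wider than that of 88.4% of the genes at or above the median level. The means were 8.11 ± 0.47 in irradiated and 8.31 ± 0.33 in sham mice (SD, n = 4 each), which differed by -0.20 (95% interval -0.72 to 0.32; limma adjusted p = 0.915). It was -0.02 without irradiated mouse 1 and -0.39 without irradiated mouse 2.

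Mice carry a close duplicate of Csf2rb, Csf2rb2, whose product serves the IL-3 receptor. Csf2rb2 stood at 8.63, 9.52, 9.48 and 9.36 in irradiated mice 1 to 4, and at 9.73, 9.06, 9.16 and 9.73 in sham mice 1 to 4. It shared the low value of irradiated mouse 1 and the high values of sham mice 1 and 4 with Csf2rb, but in irradiated mouse 3 it was high where Csf2rb was low. After each gene was centred on its mean over the 8 arrays, the profiles of the pair differed by a root mean square of 0.19, and 32 of all other genes lay closer to Csf2rb. Whether the probe sets of these near-identical genes pick up each other's transcript was not tested.

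Il4ra (probe set 17482943) encodes the chain shared by the IL-4 and IL-13 receptors, and Il6ra (probe set 17407138) the IL-6-binding chain, which pairs with gp130. For Il4ra the values were 9.71, 9.90, 9.81 and 10.09 in irradiated mice 1 to 4, and 9.89, 9.96, 9.70 and 10.10 in sham mice 1 to 4. The highest irradiated and sham arrays were both those of a mouse 4, and the difference was -0.03 (95% interval -0.30 to 0.24; limma adjusted p = 0.973).

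The values of Il6ra were 8.60, 8.69, 8.34 and 8.88 in irradiated mice 1 to 4, and 8.55, 8.58, 8.53 and 8.43 in sham mice 1 to 4. The sham mice lay close together, while the irradiated mice lay on both sides of them, with mouse 3 below and mice 1, 2 and 4 above all 4 sham mice. The SD was 0.23 in irradiated and 0.06 in sham mice (n = 4 each). The difference of 0.10 (95% interval -0.17 to 0.38; limma adjusted p = 0.917) was 0.20 without irradiated mouse 3 and 0.02 without irradiated mouse 4.

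Csf2ra and Il4ra rose and dipped on the same arrays. In both, sham mouse 4 was highest of its group, followed by mice 2, 1 and 3, and irradiated mice 4 and 2 lay above irradiated mice 1 and 3. Their centred profiles differed by a root mean square of 0.11, and 62 other genes lay closer to Csf2ra and 356 closer to Il4ra. To show the upstream sequence of a pair of members with like profiles, the stretch from 250 to 51 bases before a RefSeq transcript start of each is shown, 5′ to 3′, from assembly GRCm38.p6. Csf2ra lies at chr19:61228469-61228668 on the minus strand and Il4ra at chr7:125552021-125552220 on the plus strand. Capitals mark matches to 3 motifs searched on both strands: GAGGAA, the PU-box bound by the myeloid factor PU.1, TTCNNNGAA, a palindrome bound by STAT factors, and GGGCGG, the GC box.
Csf2ra: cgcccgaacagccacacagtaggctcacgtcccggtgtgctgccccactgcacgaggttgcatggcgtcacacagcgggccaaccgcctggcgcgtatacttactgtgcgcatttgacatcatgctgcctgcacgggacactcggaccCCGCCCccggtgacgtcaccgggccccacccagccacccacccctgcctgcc
Il4ra: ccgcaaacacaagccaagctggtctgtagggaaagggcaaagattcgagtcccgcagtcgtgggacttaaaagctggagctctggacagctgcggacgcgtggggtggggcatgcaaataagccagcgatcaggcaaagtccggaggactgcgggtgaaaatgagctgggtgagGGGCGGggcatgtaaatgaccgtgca
Each of the pair held 1 GC box, on opposite strands, and no match to the other motifs. The RefSeq promoter table had 7 promoters for 6 members (Csf2ra, Il4ra, Il6ra, Tgfbr1 with 2, Tgfbr2 and Ifngr2), of which 4 held GGGCGG, 3 held GAGGAA and 0 held TTCNNNGAA in this window. Over all 32851 promoters of the table the shares were 24.6%, 18.8% and 5.8% for these motifs in the same order. No match overlapped another in the printed stretches.

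Il10ra (probe set 17526492) encodes the ligand-binding chain of the IL-10 receptor, which damps macrophage activation. It stood at 10.17, 10.36, 10.21 and 10.23 in irradiated mice 1 to 4, and at 10.27, 10.21, 9.80 and 10.43 in sham mice 1 to 4. Sham mouse 3, the array with the highest T and NK cell marker mean, was lowest, and the other sham mice lay among or above the irradiated ones. The means were 10.24 ± 0.08 in irradiated and 10.18 ± 0.27 in sham mice (SD, n = 4 each), which differed by 0.07 (95% interval -0.24 to 0.37; limma adjusted p = 0.953), which turned to -0.06 without sham mouse 3. Il10rb, the gene of the partner chain, was also lowest in sham mouse 3, at 9.31, against 9.51 to 9.90 on the other 7 arrays.

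Ifngr2 (probe set 17327084) encodes the signalling chain of the interferon gamma receptor. Its levels were 9.88, 9.91, 9.66 and 9.87 in irradiated mice 1 to 4, and 9.75, 10.07, 9.76 and 9.64 in sham mice 1 to 4. Sham mice 2 and 4 were the highest and lowest arrays, so the irradiated values lay within the sham range, and the difference was 0.03 (95% interval -0.24 to 0.29; limma adjusted p = 0.978). The gene of the ligand-binding chain, Ifngr1, stood at 10.67, 10.56, 10.35 and 10.47 in irradiated mice 1 to 4, and at 10.79, 11.05, 10.61 and 10.82 in sham mice 1 to 4. Only irradiated mouse 1 reached into the sham range, and the difference was -0.30 ± 0.12 (SE; 95% interval -0.57 to -0.03; unadjusted p = 0.0314, adjusted p = 0.819 in limma). The difference between the effects on the 2 chains was not tested.

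Tgfbr2 binds TGF-beta and activates Tgfbr1, the kinase that phosphorylates the SMAD proteins. Tgfbr1 (probe set 17413915) stood at 8.86, 9.13, 9.36 and 8.48 in irradiated mice 1 to 4, and at 9.42, 8.70, 8.65 and 9.23 in sham mice 1 to 4. Both groups were split, with irradiated mice 2 and 3 and sham mice 1 and 4 high, and the others lower. The means were 8.96 ± 0.38 in irradiated and 9.0 ± 0.38 in sham mice (SD, n = 4 each), which differed by -0.04 (95% interval -0.54 to 0.46; limma adjusted p = 0.982).

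The 4 arrays high in Tgfbr1 were also the highest in markers of macrophage maturation. The mean of 13 macrophage maturation markers was 9.39, 9.66, 9.89 and 9.08 in irradiated mice 1 to 4, and 9.63, 9.21, 8.94 and 9.76 in sham mice 1 to 4. Tgfbr1 and these markers put the irradiated arrays in the same order, and the sham arrays in an order that differed only in mice 1 and 4. T and NK cell markers ran the other way, at 6.98, 5.52, 5.39 and 6.94 in irradiated mice 1 to 4, and at 5.51, 7.92, 8.13 and 6.04 in sham mice 1 to 4. Fitted with a covariate for T and NK cell markers the Tgfbr1 difference was -0.26, and with one for maturation markers it was -0.16. Leaving out sham mice 2 and 3, it was -0.37, and in none of these fits did it pass in limma.

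Tgfbr2 (probe set 17531987) had levels of 7.09, 7.21, 7.36 and 7.30 in irradiated mice 1 to 4, and of 7.49, 7.23, 7.24 and 7.60 in sham mice 1 to 4. Sham mice 1 and 4 were the highest arrays, as they were among the high ones for Tgfbr1, and sham mice 2 and 3 lay within the irradiated range. The means were 7.24 ± 0.12 in irradiated and 7.39 ± 0.19 in sham mice (SD, n = 4 each), which differed by -0.15 ± 0.12 (SE; 95% interval -0.41 to 0.12; limma adjusted p = 0.878). Among the members the profile of Tgfbr2 was closest to that of Csf1r, with a root mean square difference of 0.10. Over all genes, 205 lay closer to Tgfbr2 than Csf1r did, and 630 lay closer to Csf1r than Tgfbr2 did.

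**Figure D2:**
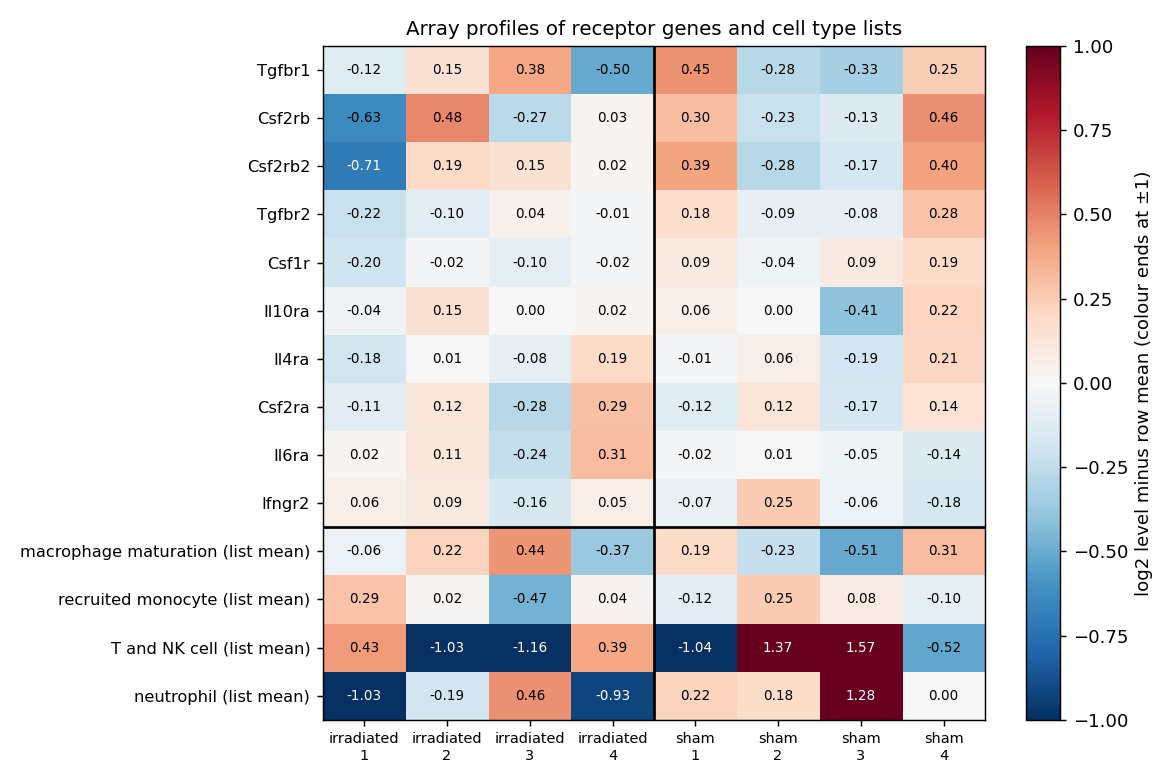
Log2 levels of the 9 receptor genes and of Csf2rb2, with the means of 4 marker lists below the line, each row centred on its mean over the 8 arrays, irradiated mice left of the vertical line and sham mice right. Tgfbr1 and the macrophage maturation list are high in irradiated mouse 3 and low in irradiated mouse 4 and sham mouse 3, while T and NK cell markers are lowest in irradiated mouse 3 and highest in sham mouse 3.

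Without sham mice 2 and 3, the arrays with the most T and NK cell transcripts, the differences of 5 receptors lay further below 0. They were -0.48 for Csf2rb, -0.31 for Tgfbr2, -0.22 for Csf1r and -0.12 for Il4ra, beside -0.37 for Tgfbr1. For Il10ra and Csf2ra the sign turned, to -0.11 and -0.0027, and Il6ra and Ifngr2 stayed above 0, at 0.13 each. None of these passed when adjusted over all genes, though Tgfbr2 had an unadjusted p of 0.0464 (adjusted p = 0.743 in limma). This setting did not even out the T and NK cell markers between the groups. Irradiated mice 1 and 4, with means of 6.98 and 6.94, stayed in beside sham mice 1 and 4, at 5.51 and 6.04. The kept sham mice were also high in macrophage maturation markers, at 9.63 and 9.76. The part of either list in these shifts was not tested. The smallest adjusted p of any of the 9 genes under any of the 19 other settings was 0.715 in limma.

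**Figure D3:**
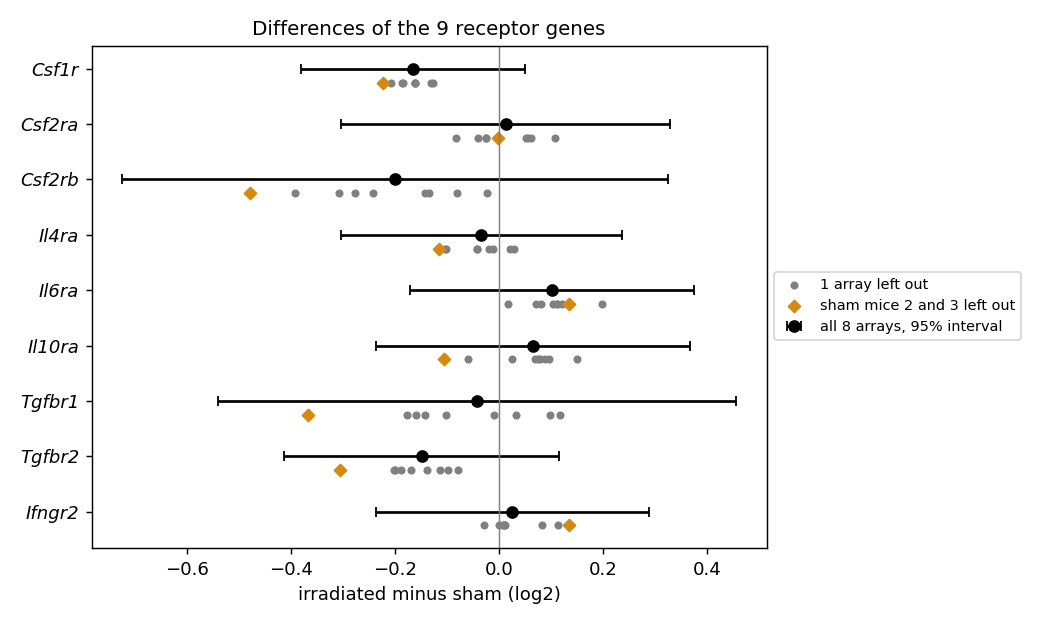
Difference of each receptor transcript, in log2 units, irradiated minus sham, with its 95% interval over all 8 arrays (black), with 1 array left out in turn (grey) and without sham mice 2 and 3 (orange). All 9 intervals include 0, and the widest are those of Csf2rb and Tgfbr1.

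The genes whose profiles were most like those of the 3 widest-ranging members were found over all 8 arrays, with predicted genes and small RNAs left out. Closest to Csf2rb were Il1f5, an IL-36 receptor antagonist gene, Nr4a2, an inducible nuclear receptor gene, and Susd4, with root mean square differences of 0.099, 0.12 and 0.14. Il1f5 was dim, between 3.47 and 4.43 on all 8 arrays, under the median of all rows. Nr4a2 stood at 8.39, 9.72, 9.16 and 9.15 in irradiated mice 1 to 4, and at 9.38, 8.80, 9.04 and 9.61 in sham mice 1 to 4, so that it was lowest and highest in the same irradiated mice as Csf2rb. Closest to Tgfbr1 were Gpcpd1 (0.092), Alkbh5, an RNA demethylase gene (0.11), and BC052040 (0.13), and closest to Il10ra were Rbms2 (0.039), Rbm47 (0.052) and Ccnt2, which encodes cyclin T2 (0.056). These likenesses rest on 8 arrays and are descriptions.

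Ligand transcripts in the same sorted samples, whatever cell in them made the transcripts, showed no change that passed. Of 14 ligand genes 6 were higher and 8 lower in irradiated mice, 0 passed in either direction, and the median difference was -0.04. The counts of this and the other pathway lists stand beside 57.8% of all genes that were lower in irradiated mice. Csf1, the CSF1R ligand, stood at 6.89, 8.36, 9.17 and 7.47 in irradiated mice 1 to 4, and at 8.87, 7.12, 7.57 and 8.86 in sham mice 1 to 4. It was high on the 4 arrays on which Tgfbr1 was high, and its difference was -0.13 (95% interval -1.29 to 1.03; limma adjusted p = 0.975). Il34, the other CSF1R ligand, averaged 4.53 ± 0.16 in irradiated and 4.24 ± 0.27 in sham mice (SD, n = 4 each), near or under the median of all rows at 4.7.

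Interferon gamma itself, Ifng, stood at 5.31, 5.07, 4.65 and 5.89 in irradiated mice 1 to 4, and at 4.42, 6.89, 7.38 and 4.45 in sham mice 1 to 4. It was highest in the sham mice with the highest T and NK cell markers. Tgfb1 averaged 9.91 ± 0.28 in irradiated and 9.94 ± 0.16 in sham mice, Il6 8.49 ± 0.64 and 8.35 ± 0.78, and Il10 6.44 ± 0.31 and 6.19 ± 0.80 (SD, n = 4 each). Csf2 and Il4 lay under the median of all rows, at 4.30 ± 0.13 and 4.34 ± 0.30 in irradiated mice and at 4.35 ± 0.25 and 4.21 ± 0.24 in sham mice. Il5, a dim transcript, had the smallest p of the list, at 3.71 ± 0.09 in irradiated and 3.93 ± 0.04 in sham mice, a difference of -0.21 (unadjusted p = 0.0435, adjusted p = 0.819 in limma).

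Among 11 measured partner and related chains 6 were higher and 5 lower in irradiated mice, with a median of 0.05 and 0 passing in either direction. Besides Ifngr1, the smallest p was that of Il13ra1, the IL-13-binding partner of Il4ra, at 9.89 ± 0.10 in irradiated and 10.05 ± 0.15 in sham mice (SD, n = 4 each), which differed by -0.15 (limma unadjusted p = 0.183). Il6st, which encodes gp130, averaged 9.04 ± 0.44 in irradiated and 9.17 ± 0.25 in sham mice, and Il10rb 9.72 ± 0.20 and 9.66 ± 0.25. Csf3r, the G-CSF receptor gene, which neutrophils express strongly, stood at 8.29, 8.79, 9.74 and 8.18 in irradiated mice 1 to 4, and at 9.19, 8.17, 8.07 and 9.10 in sham mice 1 to 4. Its highest arrays were irradiated mouse 3 and sham mice 1 and 4, which were also the highest for Cxcr2, a mature neutrophil gene of the marker list that includes Csf3r. In sham mouse 3, where precursor granule genes were high, Csf3r was at its lowest.

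Inside the cell, 10 measured JAK, STAT and SMAD genes divided evenly, 5 higher and 5 lower, with a median of -0.01, and 0 passed. Stat5b, which transmits GM-CSF signals, averaged 7.34 ± 0.23 in irradiated and 7.55 ± 0.24 in sham mice, and Smad3, a TGF-beta transducer, 7.23 ± 0.17 and 7.09 ± 0.21 (SD, n = 4 each). Of 13 feedback inhibitors 8 were higher and 5 lower, with a median of 0.03 and 0 passing. Cish, which STAT5 induces and which limits cytokine signalling, stood at 9.60, 9.97, 10.11 and 10.43 in irradiated mice 1 to 4, and at 9.81, 9.54, 9.58 and 9.87 in sham mice 1 to 4. All irradiated mice but mouse 1 lay above the sham mice, and the difference was 0.33 ± 0.17 (SE; limma unadjusted p = 0.0767, adjusted p = 0.822). Smad7, which blocks TGF-beta receptors, differed by -0.19 ± 0.10 (SE; limma unadjusted p = 0.0865).

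The 8 CSF1R signalling adaptors had a median difference of -0.03, and the 5 receptor shedding proteases and regulators one of -0.01, with 0 passing in both. Pik3cg, a phosphoinositide kinase gene, differed by -0.19, Plcg2, a phospholipase gene, by 0.05, Rhbdf2, which carries the sheddase ADAM17 to the surface, by 0.20, and Adam10, itself a sheddase gene, by -0.07. The 9 measured myeloid transcription factors had a median of 0.03, with 6 higher and 0 passing. Cebpb averaged 9.38 ± 0.08 in irradiated and 9.20 ± 0.10 in sham mice, and Maf, a macrophage factor, 9.69 ± 0.71 and 8.89 ± 0.90 (SD, n = 4 each).

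Known targets of the receptors did not pass either. Of the 7 GM-CSF and STAT5 targets, which include Cish, 6 were higher in irradiated mice, where 57.8% of all genes were lower. Their median was 0.15, and that of all genes -0.03. Pim1, a survival kinase gene, averaged 8.95 ± 0.21 in irradiated and 8.73 ± 0.29 in sham mice (SD, n = 4 each), and the median of the list was -0.00019 without sham mice 2 and 3. The 8 measured interferon gamma targets had a median of 0.08, with Irgm1, a GTPase gene, at 0.26 ± 0.20 (SE), and Cd274, which encodes PD-L1, at 0.25 ± 0.26. The 8 IL-10 and STAT3 targets had a median of 0.05, with Nfil3 at 0.17 and Ddit4 at -0.15.

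The 14 IL-4 and STAT6 targets divided evenly, 7 higher and 7 lower, with a median of -0.02. Retnla, an alternative activation marker, stood at 6.85, 7.65, 9.03 and 7.78 in irradiated mice 1 to 4, and at 7.31, 7.0, 6.66 and 7.32 in sham mice 1 to 4. Irradiated mice 2, 3 and 4 lay above the sham mice and mouse 1 among them, with a difference of 0.76 ± 0.38 (SE; limma unadjusted p = 0.0724, adjusted p = 0.822). Pparg, a lipid-sensing nuclear receptor gene, differed by 0.39 ± 0.20 (SE). Among the 9 TGF-beta and SMAD targets, with a median of 0.02, Ccn2 differed by 0.27 ± 0.20 (SE) besides Smad7. In each of these target lists 0 genes passed the adjusted threshold in either direction, and 0 had an unadjusted p under 0.05 in limma. Across all 12 pathway lists, only Il5, 1 of 14 ligands, and Ifngr1, 1 of 11 partner chains, had an unadjusted p under 0.05 in limma. The share over all 22180 genes was 6.07%.

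**Figure D4:**
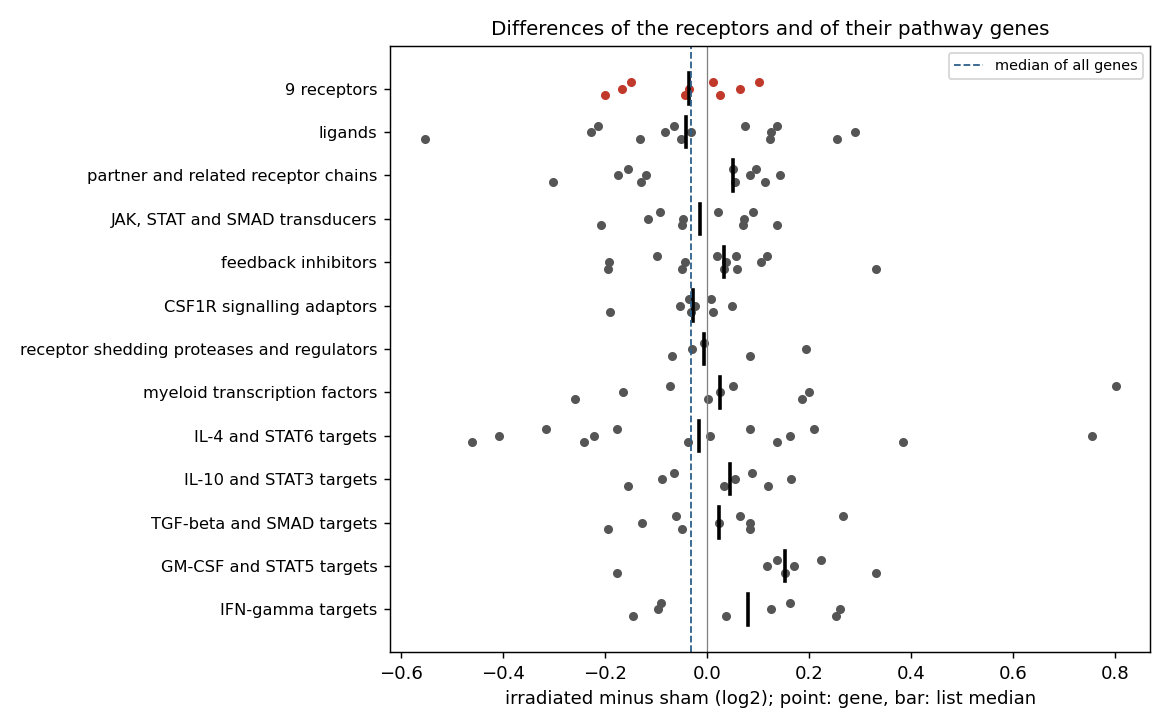
Differences of the 9 receptor genes (red) and of the genes of 12 pathway lists (grey), in log2 units, irradiated minus sham, with each list's median as a black bar and the median of all 22180 genes (-0.03) as a dashed line. The list medians lie between -0.04 and 0.15, and single genes between -0.55 (Ifng) and 0.80 (Maf).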

How the data were processed

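Transcripts were measured on 8 Affymetrix arrays, 1 per mouse, after ribo-SPIA amplification of 25 ng of total RNA, per the labels' protocols. The deposited values are log2 levels that the authors made with RMA and Partek, per the submitters' processing notes; the sources used here give no versions, settings or build. Levels of different probe sets were not ranked against each other. Genes were, however, called dim against the median of all rows, and marker lists were averaged over probe sets. Groups came from the titles. Of 34365 rows, 23521 had 1 gene symbol, 1814 several and 9030 none; the brightest row of a symbol was kept, which left 22180 genes. All were fitted with limma 3.58.1 in R 4.3.3 (lmFit, eBayes, two-sided, Benjamini-Hochberg over all genes, threshold 0.05), and the fit was tested on simulated data with known changes. Precision is limited by the number of arrays, and the median 95% interval reached 0.30 to either side.

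The members, lists and alternatives were chosen with earlier results of these data known. Named by rule were the 9 members, the 2 genes of each pathway list with the smallest p, and set partner chains and ligands. Also named by rule were sort markers and the 3 genes most like each of the 3 widest-ranging members. The other marker genes named were chosen after their values were seen. Il2rg, a set partner chain, is not analysed here. Entrez identifiers of all 9 members matched RefSeq of GRCm38.p6. Mice of equal number are different animals, so the numbers do not pair them. The deviations of equal-numbered mice correlated at -0.28 to -0.14. Without the correlations of unequal-numbered mice beside them, these cannot show whether the number carries a shared batch. Alternatives were quantile normalization, subtracted array medians, dim genes left out, averaged rows of a symbol, array weights, a robust variance with a trend, a block for mouse number, a test of every row, 2 marker list means as covariates, sham mice 2 and 3 left out and each array left out.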

Additional observations from a re-analysis of the deposited data

Results flagged for a closer look

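For the 54 genes named by rule, each group of 4 mice was checked by Dixon's test for a mouse far from the other 3. Chance meets this test in about 1 of 20 groups, and 3 of 108 groups met it. Marker genes named after their values were seen, such as Elane and Ccr7, were not checked. Irradiated mouse 3 had Ifngr2 at 9.66, and the other 3 irradiated mice had it at 9.87 to 9.91. The same mouse had Il6 at 7.53, and the others at 8.74 to 8.91. Il10 was at 5.99 in irradiated mouse 1 and at 6.55 to 6.64 in the others.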

How the results depend on the processing

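None of the 9 receptor differences passed under any of the 19 alternatives, and the smallest adjusted p was 0.715 in limma. Leaving out 1 array at a time, the differences (irradiated minus sham, log2) ranged from -0.21 to -0.13 for Csf1r, -0.39 to -0.02 for Csf2rb, -0.20 to -0.08 for Tgfbr2 and 0.02 to 0.20 for Il6ra, with no change of sign. They ranged from -0.083 to 0.11 for Csf2ra, -0.10 to 0.030 for Il4ra, -0.059 to 0.15 for Il10ra, -0.18 to 0.12 for Tgfbr1 and -0.029 to 0.11 for Ifngr2, so the sign of these 5 depended on single arrays. Signs also turned under quantile normalization for Il4ra (0.00046) and Tgfbr1 (0.0038), without sham mice 2 and 3 for Csf2ra (-0.0027) and Il10ra (-0.11), and with a covariate for T and NK cell markers for Il10ra (-0.016). The cause was not tested.

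With each array left out, the number of genes past the threshold was 0, except for 1 without irradiated mouse 1. With the mouse number as a replicate block the differences were the same by construction (-0.17 for Csf1r), 0 genes passed, and no call changed. The count at an unadjusted p under 0.05 was 801 instead of 1347 with dim genes left out, where fewer genes were tested.

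The median of the partner chains was -0.039 with dim genes left out, -0.087 without sham mice 2 and 3, and -0.063 and -0.073 with a covariate for T and NK cell or macrophage maturation markers, against 0.05. In those last 3 settings the median of the shedding proteases was 0.099, 0.12 and 0.13, against -0.01. The median of the CSF1R adaptors was 0.019 under quantile normalization and -0.065 without sham mice 2 and 3, where those of the transcription factors and TGF-beta targets were -0.11 and -0.098. With each array left out, medians ranged from -0.073 to 0.034 for ligands, -0.057 to 0.066 for partner chains, -0.051 to 0.091 for shedding proteases and -0.0091 to 0.21 for interferon gamma targets. The precision of single genes is limited by 4 mice per group, and no detection calls over background were used.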
